A study of Homo sapiens with 20 samples.

Results

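Collagen chain genes encode the alpha chains that make up the collagens, the most abundant proteins of the extracellular matrix. They were taken as all genes of the deposited expression table with a symbol of COL, a number, A and a number, which gave 42 of 24196 genes. Of these chains, 11 are fibrillar, 6 belong to the basement membrane, 3 form networks and 22 are of other kinds. The class lists also named COL9A1 and COL22A1, which were not analysed here.

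Alpha chains wind around each other into a helix inside the endoplasmic reticulum, after enzymes have hydroxylated their prolines and lysines. Fibrillar collagens such as type I then assemble into the fibers that give connective tissue its strength, type IV collagen forms the sheet of basement membranes, and type VI collagen forms beaded filaments near cells. In ovarian cancer, collagens can be made both by stromal fibroblasts and by the carcinoma cells themselves.

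The RNA came from orthotopic tumors of OVCAR8, a human ovarian cancer cell line, grown in immunodeficient NSG mice that were 6 weeks old at implantation. The vehicle group received PBS and the other group received 1 mg/kg sodium gluconate, both injected i.p. every week over 35 days. Each group had 4 libraries of polyA RNA. In the study the line implanted for this treatment carried a non-targeting guide and luciferase (OVCAR8-sgNC-luc), which the sample labels do not state. These labels name tumors and were followed here, while the text of the study speaks of treated OVCAR8 cells for this comparison, and which holds was not tested. NSG mice lack T, B and NK cells, so the host could add only the remaining cell types to a tumor. Nothing in the labels ties the libraries to separate animals, and p-values measure only the spread between these samples, which may be technical. Reads from mouse stroma may have been present, and how they were handled is not given in the sources used here.

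Levels are given as FPKM, the fragments of a gene relative to its length and to the depth of sequencing. The steps between low FPKM values gave back whole fragments, with 39325749 to 46551535 fragments in 7 libraries and 3953206 in PBS replicate 4. That library also stood apart in its values. Over log2 levels, its correlation with the other libraries was 0.938 to 0.951, while the other 7 libraries correlated with each other at 0.980 or more. The fits of the groups over tested genes are therefore given with PBS replicate 4 and without it.

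Markers of ovarian carcinoma epithelium were checked against the tumor label first. All 10 of these genes were listed and 8 averaged 0.5 FPKM or more. KRT8, a keratin of simple epithelium, was the most abundant, with 700 to 1051 FPKM. The transcription factor PAX8 lay between 32.4 and 50.7 FPKM, and MUC16, which encodes the CA-125 antigen, was listed at 0 in 6 libraries and did not exceed 0.00168 FPKM. The summed level of the list was 1810, 2133, 2414 and 1981 FPKM in PBS replicates 1 to 4 and 2018, 1672, 1906 and 2181 FPKM in gluconate replicates 1 to 4. The libraries thus carried keratins and PAX8 at high levels, with MUC16 near 0.

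Of the 42 chains, 17 averaged 0.5 FPKM or more across the 8 libraries and entered the tests, and 25 did not. The chains closest to this limit were COL4A1 with 0.621 and COL11A2 with 0.598 FPKM inside it, and COL23A1 with 0.468 and COL6A3 with 0.454 FPKM outside it. The tested chains were 4 fibrillar, 3 basement membrane, 0 network and 10 other chains. Without PBS replicate 4, COL23A1 also passed and 18 chains were tested.

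Collagen RNA was concentrated in 3 genes. COL6A1, COL6A2 and COL1A1 each had a mean of at least 100 FPKM and together made up 89.7% to 91.0% of the summed collagen FPKM of every library. COL12A1 followed at a mean of 19.9 FPKM, 8 chains lay between 1 and 10 FPKM, 5 between 0.5 and 1, 9 between 0.1 and 0.5 and 16 under 0.1. These levels depend on the gene lengths behind the FPKM, which for COL25A1, COL28A1, COL10A1 and COL4A1 were 4.97, 3.10, 3.05 and 2.36 times the principal transcript of GENCODE 29. Per principal transcript, the mean of COL25A1 would be 3.36 in place of 0.676 FPKM, and COL23A1, at 0.724, would be the only chain to change sides of the filter. Among all listed genes, COL6A1 ranked between 242 and 553 by FPKM and COL1A1 between 296 and 1415, with its lowest rank in PBS replicate 4.

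**Figure D1:**
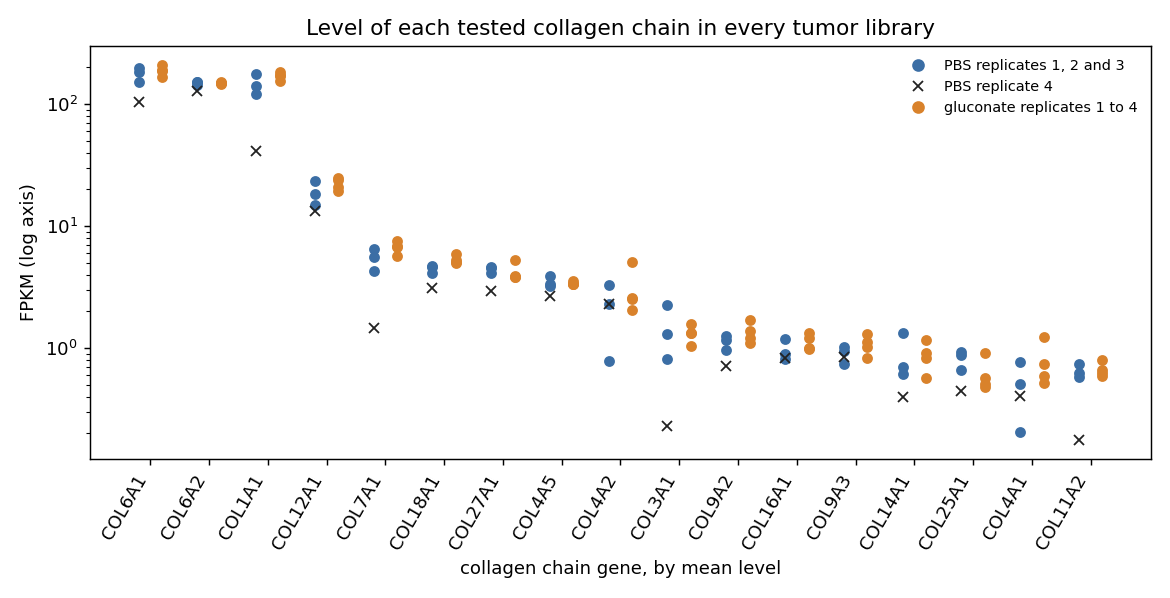
FPKM (log axis) of the 17 tested collagen chains in each of 8 tumor libraries, ordered by mean level, with PBS replicate 4 as crosses. COL6A1, COL6A2 and COL1A1 lie above the other chains, and the cross is the lowest point for 13 of the 17 chains.

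The summed level of all chains was 495, 579, 484 and 304 FPKM in PBS replicates 1 to 4 and 522, 587, 573 and 567 FPKM in gluconate replicates 1 to 4. PBS replicate 4 was far below the rest, and PBS replicate 2 lay within the gluconate range. The mean was 466 ± 116 FPKM (SD, n = 4) for PBS and 562 ± 28.2 FPKM (SD, n = 4) for gluconate. Without PBS replicate 4, the PBS mean was 520 ± 51.9 FPKM (SD, n = 3), and the groups overlapped in either case. In fragments, collagen chains took 0.155% of PBS replicate 4 and 0.254% to 0.313% of the other libraries.

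**Figure D2:**
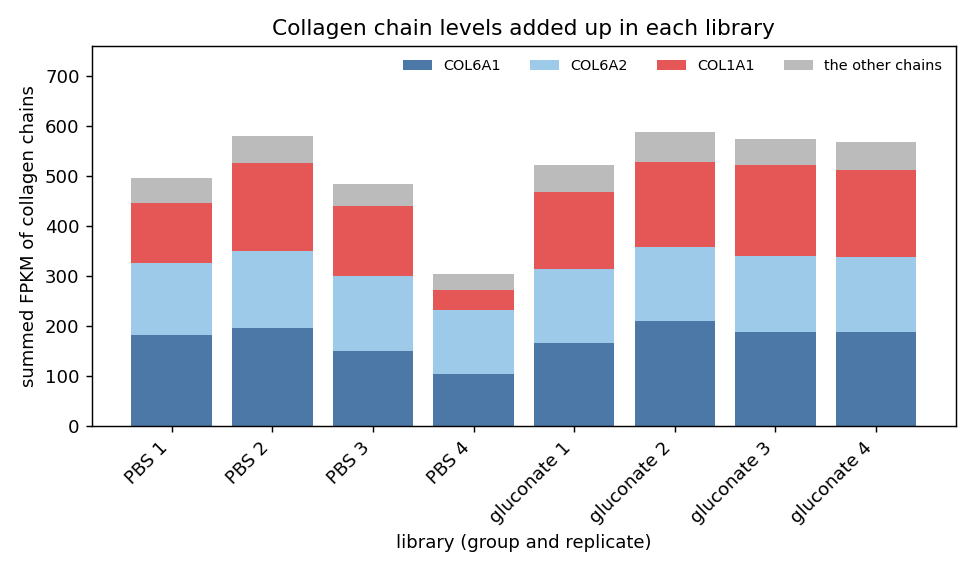
Summed FPKM of collagen chains in each library, with COL6A1, COL6A2, COL1A1 and the other chains stacked. The sum is 304 FPKM in PBS replicate 4 and between 484 and 587 FPKM in the other 7 libraries.

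PBS replicate 4 had the lowest value of all libraries for 13 of the 17 tested chains, or 76.5%. Over all 12486 tested genes it was the lowest library for 7243, or 58.0%. It was the highest library for 0 tested chains and for 1714 of all tested genes. Relative to the median of the other 7 libraries, on the log2(FPKM + 0.1) scale, it was lower by a median of -0.64 over the tested chains and of -0.28 over all tested genes. The count of 13 became 10 under median-ratio scaling, beside 4297 of 12486 genes (34.4%), and 11 under quantile normalization, beside 4745 of 12486 genes, 2 settings chosen after seeing the data. For 9 of 17 chains, or 52.9%, and for 27.5% of all tested genes, the 95% Poisson interval of the level in PBS replicate 4 lay wholly below the other 7 libraries. Such intervals and the floors given for counts of 0 cover counting error only.

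The chains farthest down in PBS replicate 4 were COL3A1 at -2.10, COL7A1 at -2.09 and COL1A1 at -2.02 relative to that median. Only 1.78% to 1.92% of all tested genes were further down than these 3 chains. COL3A1 rested on only 5 fragments there, which is 0.230 FPKM with a 95% Poisson interval of 0.0748 to 0.538, against 0.815 to 2.25 FPKM elsewhere. At the other end, the basement membrane chain COL4A2 was at -0.14 and COL9A3 and COL6A2 at -0.24. The levels of the chains in this library were thus unevenly lower. Other genes stood apart in PBS replicate 4 as well, with WT1 at 6.58 FPKM against 1.07 to 1.82 elsewhere and the collagen receptor DDR2 at 1.47 against 0.144 to 0.229. Listed levels of genes of the same kind lay on opposite sides there. The epithelial gene CLDN4 was lowest, at 0.149 against 0.538 to 1.40 FPKM, and CLDN3 highest, at 0.993 against 0.135 to 0.315 FPKM. At the depth of this library, CLDN4 and CLDN3 rest on few fragments, and their counting error was not computed. Of the smooth muscle genes, MYH11, ACTG2 and CSPG4 were highest, and MCAM, CNN1 and NOTCH3 were lowest. MYH11 had 0.291 against 0.0108 to 0.0605 FPKM, ACTG2 had 1.69 against 0.0468 to 0.384 and CSPG4 had 16.0 against 10.7 to 15.7.

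Apart from PBS replicate 4, chains differed widely in how much they varied between tumors. COL6A2 had an SD of 0.03 over the 7 libraries on the log2 scale, and only 0.296% of all tested genes had a smaller one. At the opposite end, COL4A2 had an SD of 0.77 and COL4A1 an SD of 0.65, larger than those of 99.2% and 98.6% of all tested genes. The median SD was 0.24 over the tested chains and 0.14 over all tested genes.

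Gluconate and PBS tumors were compared with limma on log2(FPKM + 0.1), two-sided, over all genes that averaged 0.5 FPKM or more. This scale understates differences of genes with low levels. With all 8 libraries, 577 of 12486 genes had an unadjusted p under 0.05, or 4.62%, and 391 of them, or 3.13% of the genes tested, were higher in gluconate. Without PBS replicate 4 there were 778 of 12530, or 6.21%, with 357, or 2.85%, higher. No gene had an adjusted p under 0.05 in limma with Benjamini-Hochberg adjustment, 0 of 12486 and 0 of 12530 genes (0%), and limma's voom on the recovered fragments also gave 0, with 594 genes at an unadjusted p under 0.05. The share of calls that were higher was 67.8% with all libraries, 50.6% of 708 under median-ratio scaling, 55.4% of 760 under quantile normalization and 45.9% without PBS replicate 4. The number of genes called also hung on other single libraries, with 1216 without PBS replicate 1, 874 without PBS replicate 2, 288 without gluconate replicate 3 and 267 without gluconate replicate 4.

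Of the 17 tested chains, 1 was called higher in gluconate at an unadjusted p under 0.05 and 0 lower, and without PBS replicate 4 it was again 1 higher and 0 lower of 18. The chain was COL18A1 both times, and none had an adjusted p under 0.05 in limma. Fold changes were above 0 for 16 of 17 chains, with 13 under median-ratio scaling, 14 under quantile normalization and 14 with voom. Over all tested genes the share above 0 was 66.4%, and 51.2%, 53.9% and 55.7% in those 3 settings. Without PBS replicate 4 they were above 0 for 14 of 18 chains and 49.1% of all genes. COL4A1 in both fits and COL23A1 without PBS replicate 4 count among the chains above 0. Their PBS means were under 0.5 FPKM, so they passed the filter through the gluconate tumors, which favors a value above 0. The median log2 fold change of the chains was 0.36 beside 0.07 over all genes, and 0.22 beside -0.00 without PBS replicate 4. Groups did not overlap for 436 genes, or 3.49%, with all libraries and for 764, or 6.10%, without PBS replicate 4, and COL18A1 was the only chain among the tested ones in each case. Fewer cells of a type and less RNA per cell cannot be told apart in such bulk samples.

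**Figure D3:**
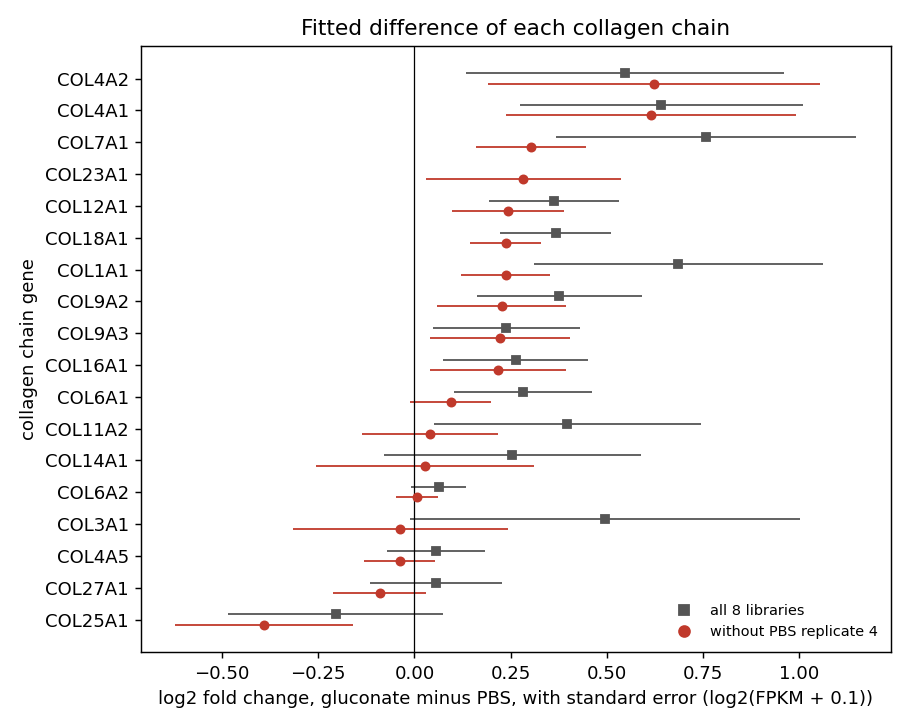
Log2 fold change (gluconate minus PBS, log2(FPKM + 0.1) scale) with standard error for each tested chain, with all 8 libraries (squares) and without PBS replicate 4 (circles). With all libraries 16 of 17 chains lie above 0 (13 under median-ratio scaling), and without PBS replicate 4 it is 14 of 18.

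Among the fibrillar chains, COL1A1, which encodes the main chain of type I collagen, had 121, 176, 140 and 41.4 FPKM in PBS replicates 1 to 4. In gluconate replicates 1 to 4 it had 155, 169, 182 and 174 FPKM. PBS replicate 4 was far below the others, and PBS replicate 2 exceeded 3 of the 4 gluconate tumors, so the groups overlapped. With all libraries its log2 fold change was 0.69 (SE 0.37, exact permutation p = 0.114, unadjusted limma p = 0.0989). Leaving out PBS replicate 4 made it 0.24 (SE 0.12, exact permutation p = 0.229, unadjusted limma p = 0.0691). Leaving out PBS replicate 2 instead, the PBS library highest for this chain, gave 0.93 and an unadjusted limma p of 0.0331. That fit called 874 genes over all. Leaving out any 1 gluconate library gave 0.65 to 0.73 and unadjusted limma p-values of 0.125 to 0.163.

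The partner of COL1A1 in type I collagen, COL1A2, was nearly silent in every library. It had 4, 16, 2 and 0 fragments in PBS replicates 1 to 4 and 8, 13, 1 and 8 in gluconate replicates 1 to 4, which is 52 in all against 282014 fragments of COL1A1. The highest level of COL1A2 was 0.0678 FPKM, in PBS replicate 2. In PBS replicate 4, 0 fragments allow up to 0.150 FPKM (3 fragments), which is above every other library. Per length, the mean level of COL1A1 was 4908 times that of COL1A2. In PBS replicate 2, with the most COL1A2 fragments, the ratio was 2594 with a counting interval of 1597 to 4539. In gluconate replicate 3, with 1 fragment of COL1A2, the interval was 6519 to 1.43e+06.

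COL3A1, the chain of type III collagen, had 1.05 to 1.57 FPKM in gluconate tumors and 0.230 to 2.25 FPKM in PBS tumors. Its log2 fold change was 0.49 (SE 0.51) with all libraries and -0.04 (SE 0.28) without PBS replicate 4. COL27A1 lay between 2.93 and 5.22 FPKM, and COL11A2 between 0.177 and 0.798 FPKM. The log2 fold change of COL27A1 also changed sign, from 0.06 (SE 0.17) to -0.09 (SE 0.12), and it was -0.01 under median-ratio scaling and -0.02 under quantile normalization. The median of the 4 tested fibrillar chains was 0.45 with all libraries and 0.00 without PBS replicate 4. COL5A1 and COL5A2, which encode chains of type V collagen that sits within type I fibrils, did not exceed 0.104 and 0.266 FPKM.

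Fibrillar chains made up 14.8% of the summed collagen FPKM in PBS replicate 4 and 25.7% to 32.9% in the other libraries. Their sum was 127, 184, 147 and 44.9 FPKM in PBS replicates 1 to 4 and 161, 176, 189 and 180 FPKM in gluconate replicates 1 to 4. Nearly all of it was COL1A1, since the other 10 fibrillar chains together reached 3.48 FPKM in PBS replicate 4 and 6.18 to 7.93 FPKM elsewhere.

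Basement membrane chains took 0.939% to 1.87% of the collagen FPKM. COL4A1 and COL4A2, which encode the chains of the common type IV collagen, varied together. COL4A1 had 0.772, 0.504, 0.204 and 0.406 FPKM in PBS replicates 1 to 4 and 0.738, 0.586, 0.520 and 1.24 FPKM in gluconate replicates 1 to 4. COL4A2 had 3.29, 2.31, 0.778 and 2.28 FPKM in PBS replicates 1 to 4 and 2.55, 2.52, 2.07 and 5.03 FPKM in gluconate replicates 1 to 4. Both were lowest in PBS replicate 3 and highest in gluconate replicate 4, with overlapping groups. The log2 fold change of COL4A1 was 0.64 (SE 0.37) with all libraries and 0.61 (SE 0.38) without PBS replicate 4. For COL4A2 it was 0.55 (SE 0.41) and 0.62 (SE 0.43). Leaving out PBS replicate 3 gave 0.37 for COL4A1 and 0.14 for COL4A2, and leaving out gluconate replicate 4 gave 0.41 and 0.28. COL4A1 was called only without PBS replicate 1, at 0.88 and an unadjusted limma p of 0.0421, and it passed the filter with a PBS mean of 0.471 and a gluconate mean of 0.771 FPKM.

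Over the 7 libraries other than PBS replicate 4, log2 levels of COL4A1 and COL4A2 had a Pearson r of 0.98 (exact permutation p = 0.00119, adjusted over 2 pairs 0.00238) and a Spearman rho of 0.96 (exact permutation p = 0.00278, adjusted 0.00556). Without PBS replicate 3 and gluconate replicate 4, the 2 libraries farthest from the median of COL4A1, r was 0.84 over 5 libraries with an exact permutation p of 0.05, so the size of the relation rested in part on those libraries. COL6A1 and COL6A2, the other tested pair, had an r of 0.17 (exact permutation p = 0.684, adjusted 0.684) and a rho of 0.25 (exact permutation p = 0.595, adjusted 0.595). Without PBS replicate 3 and gluconate replicate 1, their r was 0.34.

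**Figure D4:**
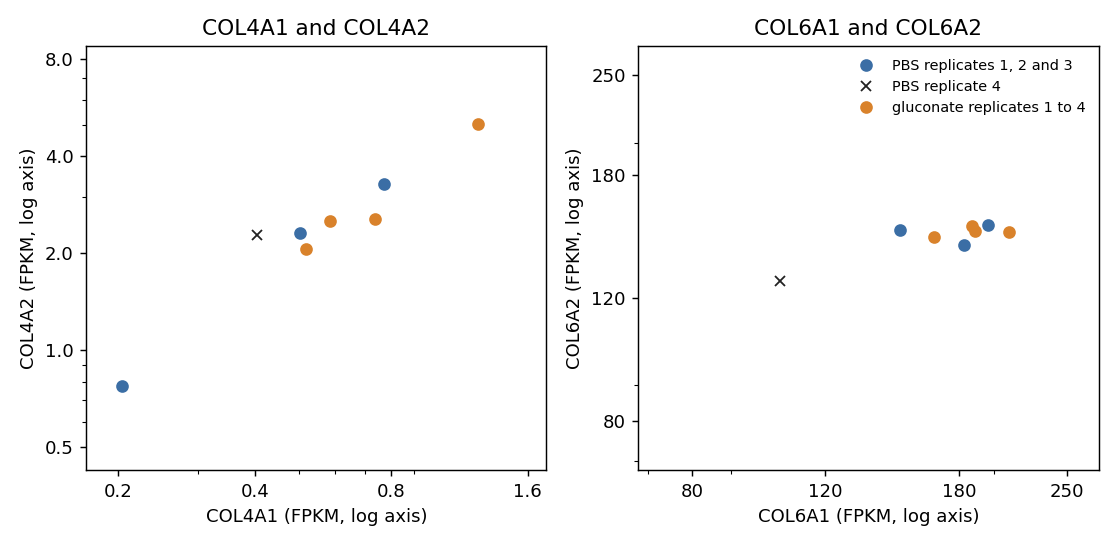
FPKM (log axes) of COL4A2 against COL4A1 and of COL6A2 against COL6A1, with 1 point per tumor library and PBS replicate 4 as a cross. COL4A1 and COL4A2 lie along a line from PBS replicate 3 to gluconate replicate 4 (r = 0.98 without the cross), while COL6A2 hardly varies.

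COL4A1 and COL4A2 lie head to head on chromosome 13, and COL4A4 and COL4A3 on chromosome 2. In RefSeq models on GRCh38.p14, 126 bases part the starts of the first pair, at chr13:110307158-110307283, and 135 bases those of the other pair, at chr2:227164489-227164623. Both intervals are intergenic in RefSeq and are shown as the shorter ones between members that are read in opposite directions. The interval between COL4A6 and COL4A5 on the X chromosome, of 379 bases, is not printed. They are given 5′ to 3′ on the plus strand, with capitals for a GC box (GGGCGG) and for a CCAAT box (CCAAT), on either strand.
COL4A1-COL4A2 interval: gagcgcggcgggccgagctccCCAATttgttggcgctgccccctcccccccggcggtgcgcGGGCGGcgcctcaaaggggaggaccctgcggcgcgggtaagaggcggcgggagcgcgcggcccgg
COL4A4-COL4A3 interval: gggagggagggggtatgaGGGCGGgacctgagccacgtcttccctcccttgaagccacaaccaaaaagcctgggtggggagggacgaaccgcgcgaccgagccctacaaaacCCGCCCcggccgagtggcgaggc

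The COL4A1-COL4A2 interval was 80.2% G and C and held 1 GC box and 1 CCAAT box. The COL4A4-COL4A3 interval was 68.1% G and C and held 2 GC boxes and 0 CCAAT boxes. Neither held a TATA box (TATAAA). Among 35116 promoter windows of RefSeq genes, 34.6% held a GC box and 21.1% a CCAAT box in the last 126 bases before the start, and 35.5% and 22.1% in the last 135 bases. A match describes the letters and does not show a bound site.

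COL4A3 and COL4A4, chains of the type IV collagen of kidney and other special membranes, were much lower, at 0.0148 to 0.120 FPKM and 0.0586 to 0.288 FPKM. All 4 of these chains had their highest level in gluconate replicate 4. COL4A5 lay between 2.65 and 3.87 FPKM, with a log2 fold change of 0.06 (SE 0.13) that was -0.04 (SE 0.09) without PBS replicate 4, -0.01 under median-ratio scaling and -0.02 under quantile normalization. Its neighbour and partner COL4A6 stayed at or under 0.180 FPKM, so that the mean of COL4A5 was 36.7 times that of COL4A6. The median of the 3 tested basement membrane chains was 0.55 with all libraries and 0.61 without PBS replicate 4. The second value is that of COL4A1 itself. Its PBS mean without that library was 0.493 FPKM, so it passed the filter through the gluconate tumors, where it was higher.

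The COL4A1 to COL4A2 ratio of FPKM was 0.178 to 0.289 across libraries, and its mean log2 was higher in gluconate by 0.20 (exact permutation p = 0.2, adjusted over 2 pairs 0.314). Leaving out PBS replicate 4 made the difference 0.10 (exact permutation p = 0.4, adjusted 0.629), where 3 against 4 libraries cannot give less than 0.0571. Its level depends on the gene lengths the authors used, which were 15595 bases for COL4A1 and 6446 for COL4A2. The principal transcripts of GENCODE 29 have 6616 and 6494 bases. The ratio of mean FPKM over all libraries was 0.239. From 3069 and 5186 fragments pooled over the libraries, the ratio per principal transcript length would be 0.581. These 2 values also differ in how the libraries are weighted, by mean level or by fragments. In GENCODE 29 the 2 gene models also overlap over 1422 bases at their starts, and without stated strand use in the counting, fragments from there cannot be told apart.

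The network chains were all below the filter. COL8A1, a chain of type VIII collagen of vessel walls and Descemet's membrane, had 24, 49, 18 and 1 fragments in PBS replicates 1 to 4 and 42, 43, 56 and 60 in gluconate replicates 1 to 4. These are 0.0944, 0.189, 0.0809 and 0.0454 FPKM for PBS and 0.187, 0.180, 0.255 and 0.252 FPKM for gluconate. Gluconate tumors were on the high side, but PBS replicate 2 lay within their range. With no filter on low values, COL8A1 was called higher, with a log2 fold change of 0.69 (SE 0.23) and an unadjusted limma p of 0.0167, a setting that was not fitted without PBS replicate 4. COL8A2 did not exceed 0.0276 FPKM, and COL10A1, a chain of growth plate cartilage, had 1 fragment in PBS replicate 1 and 0 in the other libraries.

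Among the other chains, type VI collagen was the most abundant. COL6A1 had 183, 197, 151 and 104 FPKM in PBS replicates 1 to 4 and 167, 210, 187 and 189 FPKM in gluconate replicates 1 to 4. PBS replicate 4 was the lowest, and PBS replicates 1 and 2 lay within the gluconate range. Its log2 fold change was 0.28 (SE 0.18, exact permutation p = 0.257) and 0.09 (SE 0.10, exact permutation p = 0.514) without PBS replicate 4.

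COL6A2 had 143, 153, 150 and 127 FPKM in PBS replicates 1 to 4 and 146, 149, 152 and 149 FPKM in gluconate replicates 1 to 4. Apart from PBS replicate 4, its highest level was 1.07 times its lowest. The log2 fold change was 0.06 (SE 0.07), 0.01 (SE 0.06) without PBS replicate 4 and -0.00 under median-ratio scaling. The COL6A1 to COL6A2 ratio of FPKM was 0.823 in PBS replicate 4 and 1.00 to 1.41 in the others. Its mean log2 differed by 0.22 between the groups (exact permutation p = 0.314, adjusted 0.314) and by 0.09 without PBS replicate 4 (exact permutation p = 0.629, adjusted 0.629).

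COL6A3, which encodes the largest chain of type VI collagen, was at 0.387, 0.212, 1.15 and 0.238 FPKM in PBS replicates 1 to 4 and 0.380, 0.417, 0.428 and 0.426 FPKM in gluconate replicates 1 to 4. PBS replicate 3 was the highest, and the gluconate tumors lay close together within the PBS range. Its mean level per length was 0.00262 of that of COL6A1. COL6A1 and COL6A2 lie 93063 bases apart on chromosome 21, and COL6A3 is on chromosome 2.

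The 250 bases upstream of COL6A2 and COL6A3 in RefSeq are shown because the levels of these chains lie so far apart. On GRCh38.p14 they are chr21:46097862-46098111 on the plus strand and chr2:237414165-237414414 on the minus strand, written 5′ to 3′ along the gene, with TATA, CCAAT and GC boxes in capitals on either strand.
COL6A2 upstream: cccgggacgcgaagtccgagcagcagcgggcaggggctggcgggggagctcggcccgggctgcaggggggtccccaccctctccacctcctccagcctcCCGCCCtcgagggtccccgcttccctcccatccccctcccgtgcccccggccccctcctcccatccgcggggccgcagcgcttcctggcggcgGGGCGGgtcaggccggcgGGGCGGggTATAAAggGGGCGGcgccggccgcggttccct
COL6A3 upstream: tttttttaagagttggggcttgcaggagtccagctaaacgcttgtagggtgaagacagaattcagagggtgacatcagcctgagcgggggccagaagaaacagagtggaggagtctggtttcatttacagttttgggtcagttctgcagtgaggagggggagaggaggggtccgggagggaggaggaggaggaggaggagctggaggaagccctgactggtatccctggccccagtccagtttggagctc

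The COL6A2 stretch was 79.6% G and C, with 28 CG pairs, 4 GC boxes and 1 TATA box. The COL6A3 stretch was 56.0% G and C, with 3 CG pairs and 0 matches to any of these motifs. Over all 35116 windows, 42.6% held a GC box, 32.0% a CCAAT box and 10.7% a TATA box in the 250 bases before the start. Of the 42 chains, 31 had a promoter window, and those of COL1A1, COL1A2 and COL6A1 were missing. What these letters have to do with the levels was not tested.

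COL18A1, whose product is the multiplexin of basement membranes that endostatin is cut from, was the chain called in both fits. It had 4.72, 4.63, 4.12 and 3.10 FPKM in PBS replicates 1 to 4 and 4.98, 5.93, 5.11 and 5.24 FPKM in gluconate replicates 1 to 4. Every gluconate tumor was above every PBS tumor, though the highest PBS and the lowest gluconate tumor lay close together. The mean was 4.14 ± 0.743 FPKM (SD, n = 4) for PBS and 5.32 ± 0.423 FPKM (SD, n = 4) for gluconate.

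The log2 fold change of COL18A1 was 0.37 (SE 0.14, unadjusted limma p = 0.0303), with an exact permutation p of 0.0286, the smallest that 4 against 4 libraries can give. Its Benjamini-Hochberg adjusted p in limma was 0.740. Without PBS replicate 4 it was 0.24 (SE 0.09, unadjusted limma p = 0.0281), with an exact permutation p of 0.0571, again the smallest possible. Over 18 alternatives its adjusted p in limma ran from 0.491 to 0.901. The limma call was lost without PBS replicate 3, at an unadjusted p of 0.0515. It was also lost without gluconate replicate 2, 3 or 4, at an unadjusted p of 0.0845, 0.0504 and 0.0555.

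COL7A1, the chain of the anchoring fibrils that tie epithelium to the matrix beneath, had 5.62, 4.28, 6.52 and 1.46 FPKM in PBS replicates 1 to 4. In gluconate replicates 1 to 4 it had 5.69, 6.78, 6.82 and 7.54 FPKM. PBS replicate 4 was far below the rest, and only PBS replicate 3 reached into the gluconate range. Its log2 fold change was 0.76 (SE 0.39, exact permutation p = 0.0571, unadjusted limma p = 0.0828) with all libraries and 0.30 (SE 0.14, exact permutation p = 0.114, unadjusted limma p = 0.0619) without PBS replicate 4. Leaving out PBS replicate 3, the PBS library highest for this chain, gave 1.00 with an unadjusted limma p of 0.0323. That fit called 501 genes over all. Leaving out any 1 gluconate library gave 0.70 to 0.83 with unadjusted limma p-values of 0.0952 to 0.155.

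Fibril-associated collagens sit on the surface of fibrils, and COL12A1 was the most abundant of them. It had 18.4, 23.6, 15.0 and 13.4 FPKM in PBS replicates 1 to 4 and 23.6, 25.0, 20.9 and 19.3 FPKM in gluconate replicates 1 to 4. PBS replicate 2 lay within the gluconate range and the other PBS tumors below it. It had a log2 fold change of 0.36 (SE 0.17, exact permutation p = 0.114, unadjusted limma p = 0.0599) and 0.24 (SE 0.15, exact permutation p = 0.229, unadjusted limma p = 0.126) without PBS replicate 4. Leaving out PBS replicate 2, the PBS library highest for this chain, gave 0.51 with an unadjusted limma p of 0.00491. That fit called 874 genes over all. Leaving out PBS replicate 3 gave 0.30 with an unadjusted limma p of 0.144. Leaving out any 1 gluconate library gave 0.30 to 0.43 with unadjusted limma p-values of 0.0501 to 0.145.

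COL9A2, COL9A3, COL14A1 and COL16A1, also fibril-associated, had means of 0.814 to 1.18 FPKM and log2 fold changes of 0.24 to 0.38. These became, without PBS replicate 4, 0.03 for COL14A1 and 0.22, 0.22 and 0.23 for COL16A1, COL9A3 and COL9A2. The membrane-spanning chain COL25A1 was the only tested chain with a fold change below 0 with all libraries, at -0.20 (SE 0.28), and it was -0.39 (SE 0.23, exact permutation p = 0.171) without PBS replicate 4. COL23A1, also membrane-spanning, had a log2 fold change of 0.28 (SE 0.25) without PBS replicate 4. It passed the filter there with a PBS mean of 0.439 and a gluconate mean of 0.579 FPKM. The median was 0.27 over the 10 tested chains of this class. Without PBS replicate 4 it was 0.22 over 11, COL23A1 among them.

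The 25 chains below the filter included both chains that come with an abundant partner and chains of specialised tissues. Of all 42 chains, 29 were above 0 in every library, and 4 were listed at 0 in PBS replicate 4 alone, COL1A2, COL5A1, COL8A2 and COL15A1. With 10 chains, among them COL2A1 of cartilage and COL11A1, no library had as many as 10 fragments. No group of an untested chain lay wholly apart from the other, with or without PBS replicate 4. The 5 listed antisense or divergent transcripts named after a chain, such as COL1A2-AS1 and COL18A1-AS1, did not exceed 0.0460 FPKM, and without stated strand use they cannot be told apart from their chains.

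A list of 48 genes of collagen making, crosslinking and binding was then compared. Each was present in the deposited values, and 40 passed the filter. With all libraries 7 were called higher and 0 lower at an unadjusted p under 0.05, and without PBS replicate 4 it was 5 higher and 0 lower of 41, with 4 genes called in both. Over all genes tested, 3.13% and 2.85% were called higher. Fold changes were above 0 for 37 of 40 genes beside 66.4% of all genes, with a median of 0.20 beside 0.07. Without PBS replicate 4 they were above 0 for 32 of 41 beside 49.1%, with a median of 0.09 beside -0.00. ADAMTS2 in both fits and COLGALT2 without PBS replicate 4 count among the genes above 0. Their PBS means were under 0.5 FPKM, so they passed the filter through the gluconate tumors, which favors a value above 0. No gene of the list had an adjusted p under 0.05 in limma. The number called higher was 10 without PBS replicate 1 and 8 without PBS replicate 2, beside 928 and 665 over all genes. It was 2 without PBS replicate 3, gluconate replicate 2 or gluconate replicate 4 and 1 without gluconate replicate 3, beside 304, 261, 158 and 165 over all genes.

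**Figure D5:**
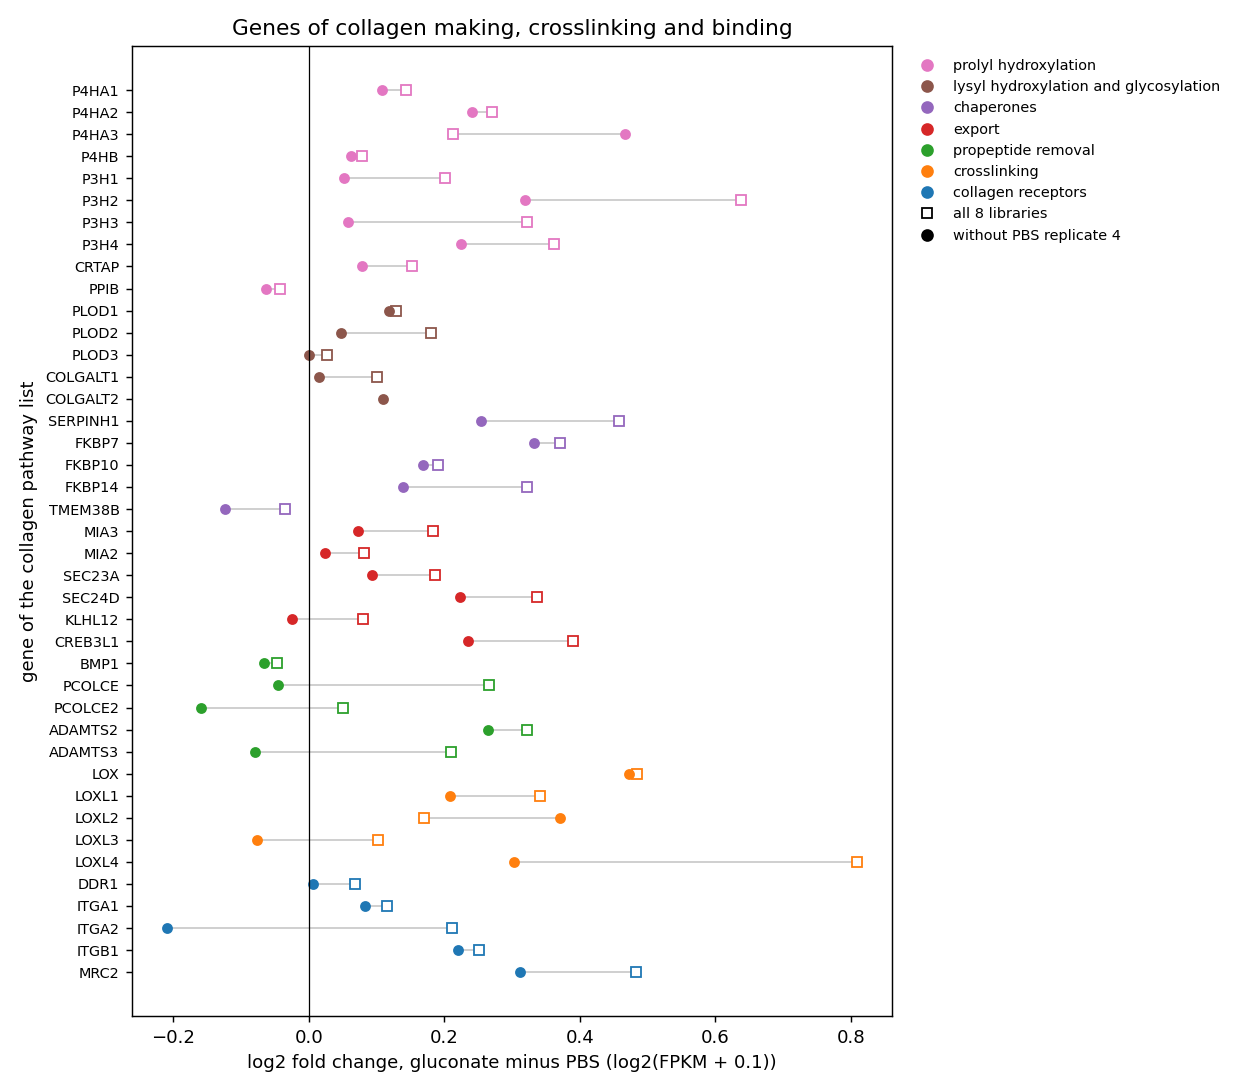
Log2 fold change (gluconate minus PBS, log2(FPKM + 0.1) scale) of the tested genes of the collagen list by step, with all 8 libraries (squares) and without PBS replicate 4 (circles). LOX keeps its value (0.48 and 0.47), while LOXL4 moves from 0.81 to 0.30.

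LOX, the lysyl oxidase that starts crosslinks between collagen molecules, had 7.94, 9.81, 6.24 and 7.59 FPKM in PBS replicates 1 to 4. In gluconate replicates 1 to 4 it had 10.3, 11.1, 10.5 and 12.0 FPKM. All gluconate tumors were above all PBS tumors, and PBS replicate 4 lay among the other PBS tumors. The difference in log2 was 0.48 (SE 0.13, exact permutation p = 0.0286, unadjusted limma p = 0.00502) and 0.47 (SE 0.13, exact permutation p = 0.0571, unadjusted limma p = 0.00604) without PBS replicate 4. It had an unadjusted p under 0.05 in each of 18 alternatives, with adjusted limma p-values of 0.491 to 0.901, and 0.740 with all libraries.

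LOXL2, a related oxidase, had 6.63, 7.15, 5.52 and 11.2 FPKM in PBS replicates 1 to 4 and 9.18, 7.48, 8.33 and 8.29 FPKM in gluconate replicates 1 to 4. Here PBS replicate 4 was the highest of all libraries. Its log2 fold change was 0.17 (SE 0.19, exact permutation p = 0.486) with all libraries and 0.37 (SE 0.10, exact permutation p = 0.0571, unadjusted limma p = 0.00580) without PBS replicate 4, where the groups did not overlap. LOXL1 was the most abundant gene of the crosslinking step, with 13.5 to 28.0 FPKM.

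Hydroxylation of prolines lets the helix hold at body temperature, and 3 of 10 genes of this step were called higher with all libraries and 1 of 10 without PBS replicate 4, beside 3.13% and 2.85% of all genes. P4HA2, a catalytic subunit of prolyl 4-hydroxylase, had a log2 fold change of 0.27 (SE 0.12, exact permutation p = 0.0857, unadjusted limma p = 0.0469) and 0.24 (exact permutation p = 0.171, unadjusted limma p = 0.0685) without PBS replicate 4. P3H2, a prolyl 3-hydroxylase that acts on type IV collagen, had 1.64 FPKM in PBS replicate 4 and 3.75 to 5.70 FPKM elsewhere. Its log2 fold change was 0.64 (SE 0.28, exact permutation p = 0.0571, unadjusted limma p = 0.0489) and 0.32 (SE 0.12, exact permutation p = 0.114, unadjusted limma p = 0.0210) without PBS replicate 4. P3H4, a member of the prolyl 3-hydroxylase family without known activity of its own that was listed with this step, had 0.36 (SE 0.16, exact permutation p = 0.114, unadjusted limma p = 0.0482) and 0.22 (exact permutation p = 0.229, unadjusted limma p = 0.0791) without that library. PPIB, a prolyl isomerase, was the most abundant gene of the step, with 301 to 372 FPKM.

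In lysyl hydroxylation and glycosylation, 0 of 4 tested genes were called, and PLOD2 was the most abundant with 72.8 to 120 FPKM. The collagen chaperone SERPINH1 (HSP47) led its step, of which 0 of 5 genes were called. It had 151, 204, 114 and 86.4 FPKM in PBS replicates 1 to 4 and 151, 190, 201 and 188 FPKM in gluconate replicates 1 to 4. PBS replicate 4 was again the lowest, and PBS replicate 2 the highest of all.

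SEC24D, a coat protein of the vesicles that export procollagen, had a log2 fold change of 0.34 (SE 0.14, exact permutation p = 0.0857, unadjusted limma p = 0.0391) and 0.22 (exact permutation p = 0.171, unadjusted limma p = 0.0702) without PBS replicate 4, the only call among 6 export genes. SEC23A was the most abundant of these, with 35.3 to 51.7 FPKM. Of the genes that remove propeptides, 0 of 5 tested were called, and PCOLCE, an enhancer of procollagen C-proteinase, led with 6.69 FPKM in PBS replicate 4 and 13.1 to 20.0 FPKM elsewhere.

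Among the collagen receptors, 2 of 5 tested genes were called higher in both fits, where 3.13% and 2.85% of all genes were. ITGB1, the beta subunit of the collagen-binding integrins, had 175, 136, 134 and 135 FPKM in PBS replicates 1 to 4 and 171, 178, 175 and 163 FPKM in gluconate replicates 1 to 4. Only PBS replicate 1 lay within the gluconate range. Its log2 fold change was 0.25 (SE 0.09, exact permutation p = 0.0857, unadjusted limma p = 0.0239) and 0.22 (SE 0.09, exact permutation p = 0.171, unadjusted limma p = 0.0434) without PBS replicate 4.

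MRC2, which takes up collagen for breakdown, had 22.5, 21.9, 16.7 and 12.5 FPKM in PBS replicates 1 to 4 and 22.3, 23.1, 28.9 and 26.4 FPKM in gluconate replicates 1 to 4. The groups overlapped by PBS replicate 1 alone. For MRC2 the log2 fold change was 0.48 (SE 0.18, exact permutation p = 0.0571, unadjusted limma p = 0.0258) and 0.31 (SE 0.12, exact permutation p = 0.114, unadjusted limma p = 0.0313) without PBS replicate 4. ITGA11, a receptor subunit for fibrillar collagen that was below the filter, had 0.0927 to 0.140 FPKM in PBS tumors and 0.182 to 0.302 FPKM in gluconate tumors, with no overlap. Among the 7 pathway genes that limma called with all libraries, only LOX had an exact permutation p under 0.05. Apart from LOX, the limma calls of these pathway genes hung on the setting. P4HA2 was called in 7 of 18 alternatives and in 3 of the 8 fits among them that left out 1 library, P3H4 in 8 and 3, P3H2 and SEC24D each in 9 and 2, ITGB1 in 12 and 4, MRC2 in 15 and 5 and LOXL2 in 4 and 1. For ITGB1 the call was also lost under median-ratio scaling, at 0.19 and an unadjusted p of 0.0742.

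Markers of other cell types that make or border collagen were read beside the chains. For fibroblasts, 12 genes without collagens were all listed and 5 were tested, with 0 called with or without PBS replicate 4. Their summed level was 78.5, 55.1, 55.0 and 65.1 FPKM in PBS replicates 1 to 4 and 64.1, 76.5, 72.3 and 112 FPKM in gluconate replicates 1 to 4. Most of it was MFAP5, with 39.4 to 92.3 FPKM and its highest level in gluconate replicate 4. FBLN1 lay between 5.75 and 9.65 FPKM, LUM between 1.70 and 5.18, PDGFRB between 1.28 and 3.41 and FAP between 0.609 and 3.34. The markers DCN, PDGFRA and POSTN stayed under 0.1 FPKM in every library, with PDGFRA listed at 0 in 4 and POSTN in 3 of them. The median log2 fold change of the 5 tested genes was 0.34, and 0.21 without PBS replicate 4.

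Of 8 smooth muscle and pericyte markers, all were listed, 5 were tested and 0 were called. Among the untested ones, groups did not overlap for ACTG2, with 1.69 FPKM in PBS replicate 4, 0.146 to 0.384 FPKM in the other PBS tumors and 0.0468 to 0.140 FPKM in gluconate tumors (exact permutation p = 0.0286, and 0.0571 without PBS replicate 4). MCAM was the most abundant with 25.6 to 49.8 FPKM, and the summed level was 61.8, 63.6, 58.8 and 48.5 FPKM in PBS replicates 1 to 4 and 58.6, 64.8, 65.7 and 69.2 FPKM in gluconate replicates 1 to 4. Of 9 endothelial markers, 8 were listed and summed to 1.20 to 4.22 FPKM, with CDH5, VWF, KDR and CLDN5 under 0.1 FPKM everywhere. Groups did not overlap for the untested CDH5, though all its levels were near 0. It was listed at 0 in every PBS tumor and at 0.00568 to 0.0301 FPKM in gluconate tumors (exact permutation p = 0.0286, and 0.0571 without PBS replicate 4). Such levels rest on very few fragments, and the 0 in PBS replicate 4 comes from a library of 3953206 fragments. TIE1, the most abundant, was the only endothelial gene tested with all libraries, while ERG also passed the filter without PBS replicate 4 and was not called (-0.17, SE 0.21). TIE1 passed the filter through 2.86 FPKM in PBS replicate 3 alone, without which it was not tested. It was called lower, at -1.28 (SE 0.56, exact permutation p = 0.0857, unadjusted limma p = 0.0470), and not without PBS replicate 4, at -1.22 (exact permutation p = 0.171, unadjusted limma p = 0.0659). The limma call was also lost without any 1 of the 4 gluconate libraries and held in 5 of 16 alternatives.

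Of 8 myeloid markers, 6 were listed, 2 were tested and 0 were called, and they summed to 20.8 to 28.9 FPKM. Nearly all of that was CD68, a lysosomal protein that is not limited to macrophages, while PTPRC and CD14 stayed under 0.1 FPKM. Of the 8 tested epithelial genes, KRT7 was called higher, at 0.73 (SE 0.26, exact permutation p = 0.0857, unadjusted limma p = 0.0201) and at 0.48 (SE 0.19, exact permutation p = 0.171, unadjusted limma p = 0.0271) without PBS replicate 4. It had 124 FPKM in PBS replicate 4, 185 to 335 FPKM in the other PBS tumors and 293 to 393 FPKM in gluconate tumors. Without gluconate replicate 3 or gluconate replicate 4, its call was lost. Other genes of this list went the other way, with KRT8 at -0.20, KRT18 at -0.33 and WT1 at -0.67, and at -0.21, -0.31 and -0.14 without PBS replicate 4. Of the 8 genes, 5 were above 0 with a median of 0.10, and 3 with a median of -0.09 without PBS replicate 4. The part of these cell types in the levels of collagen chains was not tested.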

How the data were processed

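The authors deposited FPKM values per gene symbol, with GRCh38 named in the submitters' processing notes, and the aligner, the annotation, the counting and its use of strand are not given in the sources used here. Columns headed C and T were read as PBS and gluconate, as the study's own ratio of T to C for gluconate against PBS implies. Whole fragments were recovered from the steps between FPKM values (all values within 0.01 fragments of a whole number). Genes averaging 0.5 FPKM or more were fitted with limma 3.58.1 in R 4.3.3 (lmFit, eBayes with trend) on log2(FPKM + 0.1), unpaired and two-sided, adjusted by Benjamini-Hochberg across every gene in the fit, and called at an unadjusted p under 0.05. Both the fit and the recovery were tested on simulated data. Single genes, pair ratios and correlations were also tested by exact permutation. Python 3.11.15, numpy 2.4.6, scipy 1.17.1, pandas 2.3.3 and matplotlib 3.10.9 were used, with upstream sequences from RefSeq and transcripts from GENCODE 29.

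The members and lists were chosen with earlier results of these data known. Values in every library were given for chains with a mean of at least 5 FPKM and for chains called or with groups apart. Among called genes of the pathway list they were given for LOX, LOXL2, ITGB1 and MRC2. P4HA2, P3H4 and SEC24D were given by fold change without levels, and P3H2 with PBS replicate 4 and the range elsewhere. The most abundant gene of each step or marker list and the markers at or near 0 were also named. COL1A2, COL3A1, COL4A1, COL4A2, COL6A3, COL8A1, PAX8, the other fibroblast markers, SERPINH1, ACTG2, MYH11, CNN1, CSPG4, NOTCH3, CLDN3, WT1, KRT18, ERG, CDH5, CLDN4, DDR2 and KRT7 were given in more detail after their values were seen. Alternatives were pseudocounts of 1 and 0.01, no filter, a mean FPKM of at least 1, median-ratio scaling, quantile normalization, voom on recovered fragments, a block for replicate number, and fits that dropped 1 library each. The 12 libraries of cells in the series were not analysed here.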

Additional observations from a re-analysis of the deposited data

Results flagged for a closer look

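In 90 groups of 4 libraries, each the PBS or the gluconate values of a reported quantity, 1 library's gap to its nearest neighbour was compared with the range of its group. In 6 groups that gap took up so much of the range that chance alone gives it in about 1 in 20 groups, which is 4.5 of 90. PBS replicate 4 had 3.95e+06 fragments, against 3.99e+07 to 4.66e+07 in the other PBS libraries. Gluconate replicate 4 had 5.03 FPKM of COL4A2, against 2.07 to 2.55 in the other gluconate libraries, and 10.1 FPKM summed over the basement membrane chains, against 6.33 to 6.87. Gluconate replicate 3 had 3.53 FPKM of COL4A5, against 3.32 to 3.34. Gluconate replicate 2 had 5.22 FPKM of COL27A1, against 3.81 to 3.91. PBS replicate 1 had 175 FPKM of ITGB1, against 134 to 136 in the other PBS libraries. Of the 6, 1 was PBS replicate 4.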

How the results depend on the processing

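The count of chains called lower was 0 in each of 18 alternatives, while limma called 1 higher at an unadjusted p under 0.05 in the fit as reported. It called 2 of 42 with no filter (COL8A1 and COL18A1, beside 1028 of 24196 genes), 2 of 17 with the replicate block (beside 470 of 12486) and 2 of 18 with voom without PBS replicate 4 (beside 759 of 12530), a setting chosen after seeing the data. Leaving out each library gave 0 to 3 chains. COL18A1 was called in 14 of 18 alternatives and its log2 fold change lay between 0.24 and 0.43. Genes called over all genes tested numbered 1028 with no filter and 267 to 1216 when a library was left out. Pathway genes called higher, also counted under settings chosen after seeing the data, numbered 3 with the replicate block, beside 303 of 12486 genes. With quantile normalization without PBS replicate 4 they numbered 4, beside 382 of 12534 genes. When a library was left out they numbered 1 to 10, beside 158 to 928 over all genes. The median of the chains stayed above 0, from 0.15 with no filter, over 0.22 to 0.45 with libraries left out. The pair ratio difference ran from 0.10 to 0.28 for COL4A1/COL4A2 and from 0.09 to 0.30 for COL6A1/COL6A2. The correlation of COL4A1 and COL4A2 went from 0.98 to 0.84 without the 2 farthest libraries.

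Of 301 chain values under alternatives, 18 had the other sign, in 4 chains that were not called. COL3A1 was at -0.0370 to 0.906 when a library was left out, the lowest without PBS replicate 4, where voom gave -0.0416 and quantile normalization -0.0505. COL4A5 was at -0.00804 with median-ratio scaling, -0.0239 with quantile normalization, -0.0146 with voom and -0.0387 to 0.137 when a library was left out. Its lowest value was without PBS replicate 4, where voom gave -0.0420 and quantile normalization -0.0349. COL6A2 was at -0.00256 with median-ratio scaling and -0.0183 with quantile normalization without PBS replicate 4. COL27A1 was at -0.00889 with median-ratio scaling, -0.0244 with quantile normalization, -0.0462 with voom and -0.0907 to 0.127 when a library was left out. Its lowest value was without PBS replicate 4, where voom gave -0.0896 and quantile normalization -0.0866, and it was -0.0521 without gluconate replicate 2. The cause was not tested.

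Whether replicate numbers pair the libraries is not stated. Deviations of same-numbered libraries correlated at -0.18, 0.08, 0.17 and -0.06, PBS replicates 2 and 3 correlated best with the gluconate library of their own number and PBS replicates 1 and 4 with another, and with the replicate block 2 chains were called, COL12A1 (0.36, unadjusted limma p = 0.0108) and COL18A1, with 470 genes over all. The depth of PBS replicate 4 limits the chains with few fragments, where 3 fragments of COL1A2 would be 0.150 FPKM.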
